A study of Mus musculus with 21 samples.

Results

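The genes described here are 9 proteases and protease inhibitors that act at the cell surface and in the extracellular matrix, taken from a mouse traumatic brain injury (TBI) study of sorted brain immune cells. They are the matrix metalloproteinases (MMPs) Mmp12, Mmp13, Mmp14 and Mmp19, the tissue inhibitors of metalloproteinases (TIMPs) Timp1 and Timp2, and the membrane proteases Adam8, Adam10 and Adam17. The genes were chosen by family and function with earlier results of these data known, so counts over them are a description. They were taken from the table by gene symbol, and all 9 were found among the 45706 gene identifiers of the deposited table and passed the filter on low counts. The 21 libraries fall into 7 groups of 3. Microglia, sorted as CD45low CD11b+ cells, came from wild-type (WT) sham controls and, 1 d or 7 d post controlled cortical impact (CCI), a surgical model of TBI, from WT mice and from Fgg390-396A mice. Infiltrating myeloid cells, sorted as CD45hi CD11b+ cells and labelled macrophages, came from both genotypes at 1 d only. Fgg390-396A, as the labels spell it, is the Fgg γ390–396A strain, called Fgg below. These mice carry a fibrinogen γ chain without the motif that binds the CD11b/CD18 integrin, while clotting is retained. All mice were adult males on the C57BL/6 background, and each library holds the cells of 2 brains pooled at random from a tissue block around the lesion. There is no sham group of the Fgg genotype, so both genotypes were set against the same WT sham libraries. The labels give no day after surgery for these sham libraries, which serve at both 1 d and 7 d.

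MMPs are secreted or membrane-bound zinc proteases that cut collagen, elastin, laminin, cytokines and other MMPs, and most are made as inactive precursors. TIMPs bind the active site of MMPs and of some ADAMs and block it. ADAMs are transmembrane metalloproteases. Adam10 and Adam17 release the outer part of surface proteins such as Notch receptors, TNF and its receptors, and fractalkine, and Adam17 is the enzyme that frees soluble TNF. Adam8 is a leukocyte member of that family linked to cell migration. In the injured brain these enzymes are studied for their part in opening the blood-brain barrier, in clearing debris and in scar formation.

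On GRCm38, Mmp13 (chromosome 9, 7272514 to 7283331) and Mmp12 (chromosome 9, 7344381 to 7369499) lie next to each other on the plus strand at the edge of a cluster of MMP genes that continues with Mmp1b, Mmp3, Mmp10, Mmp8, Mmp27, Mmp20 and Mmp7. The other members are spread over the genome. Mmp14 lies on chromosome 14 (54431612 to 54445364), Mmp19 on chromosome 10 (128790910 to 128800824), Timp1 on chromosome X (20870166 to 20874735, inside Syn1 on the other strand), Timp2 on chromosome 11 (118301069 to 118355740), Adam8 on chromosome 7 (139978932 to 139992562), Adam10 on chromosome 9 (70678997 to 70780229) and Adam17 on chromosome 12 (21323509 to 21373632). The bases just before the start are shown for 4 of the 6 genes that were higher in WT microglia at 1 d. They are shown since AP-1, an injury-induced factor, is known to drive several MMP promoters. Mmp14, also higher, is not printed, and its window held no AP-1 match. The sequences are from RefSeq (GRCm38.p6), 100 bases each, 5′ to 3′ on the strand of the gene, and capitals mark matches to the AP-1 motif TGANTCA and to the TATA box TATAAA.
Mmp13, chr9:7272414-7272513, plus strand: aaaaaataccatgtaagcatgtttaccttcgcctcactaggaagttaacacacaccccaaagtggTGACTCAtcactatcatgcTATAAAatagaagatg
Mmp12, chr9:7347274-7347373, plus strand: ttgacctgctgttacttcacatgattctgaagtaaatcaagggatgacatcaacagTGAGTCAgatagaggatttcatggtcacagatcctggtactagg
Timp1, chrX:20870066-20870165, plus strand: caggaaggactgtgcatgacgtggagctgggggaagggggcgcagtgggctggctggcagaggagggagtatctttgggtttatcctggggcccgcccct
Adam8, chr7:139992563-139992662, minus strand: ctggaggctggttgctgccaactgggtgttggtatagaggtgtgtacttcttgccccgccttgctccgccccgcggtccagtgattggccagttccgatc
Mmp12 has 2 RefSeq starts. The later one is shown, and the window of the earlier one held no AP-1 match. RefSeq windows of 300 bases, with 250 before and 50 after the start, were at hand for 8 of the 9 genes, all but Mmp19, and made 9 windows in all. Both strands were searched. The AP-1 motif was found in 2 of the 9 windows, those of Mmp13 (from base -35, counted from the start) and of the later Mmp12 start (from base -44), against 7.81% of all 32851 mouse windows. The TATA box was found in the same 2 windows, in that of Mmp12 just after the start and so outside the printed bases, against 13.6% of all. The core GAGGAA, bound by PU.1, was found in 2 windows (the earlier Mmp12 start and Adam10) against 28.3%, and the palindrome TGACGTCA (1.79% of all), the STAT motif TTCNNNGAA (8.3%) and the NF-kB motif (4.51%) were found in 0 of the 9. A match describes these letters and is not a measured binding site.

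Expression is given in CPM, the counts of a gene relative to the scaled library total, after edgeR's scaling between libraries, and since gene length was divided out by the authors, levels of different genes can be compared per length. Library totals ranged from 18896957 to 51875767, and 3 counts, taken as the smallest level that can be read, correspond to between 0.0578 and 0.159 CPM before that scaling. This limit treats the length-scaled values as read counts, so it only approximates counting error. Summed markers fitted the sort: the 8 microglia markers came to between 2740 and 11200 CPM in microglia libraries and to between 345 and 963 CPM in infiltrating myeloid cells. The 6 monocyte markers came to between 5.69 and 57.5 CPM in microglia and to between 728 and 1120 CPM in infiltrating myeloid cells, and the 9 neutrophil markers to between 105 and 867 CPM and between 2740 and 13200 CPM, so the cells labelled macrophages also held neutrophil RNA. Markers of fibroblasts and pericytes, cells that are rich in MMPs and TIMPs in other tissues, summed to at most 2.47 CPM in any library.

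**Figure D1:**
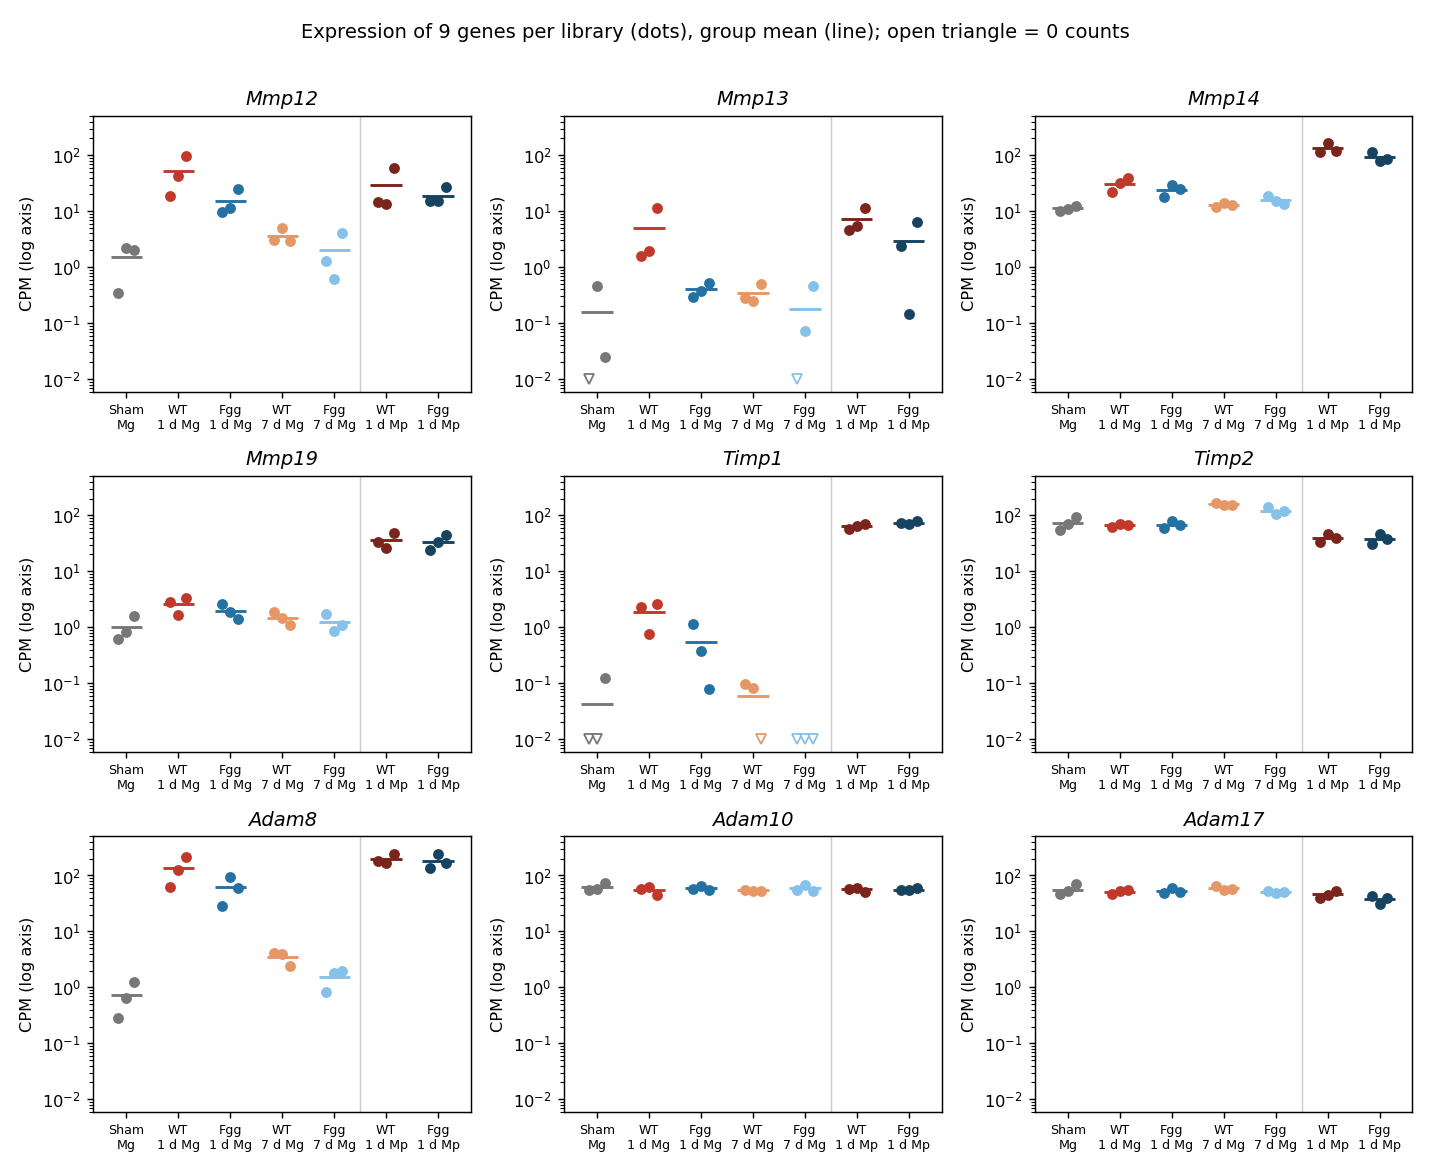
CPM of each gene on a log axis, by group (Mg, microglia; Mp, infiltrating myeloid cells), with 1 dot per library, a line at the group mean and an open triangle for a library with 0 counts. Adam8 and Mmp12 sit low in sham microglia and high at 1 d, Timp1 is high in the 6 myeloid libraries (56.6 to 80.2 CPM), and Adam10 and Adam17 lie between 31.0 and 74.6 CPM in all libraries.

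To see which of these genes respond to injury in microglia, WT mice at 1 d post-CCI were compared with sham controls. Of the 9 genes, 6 were higher and 0 lower, where a gene counts as changed if its log2 fold change exceeds 1 in either direction at an adjusted p under 0.05. Of all 23815 genes tested, 12.3% were called in this comparison. The 6 were Adam8, Mmp12, Mmp13, Mmp14, Mmp19 and Timp1, and the median log2 fold change was 1.47 over the 9 genes and 0 over all genes. In bulk RNA, more cells of a kind and more RNA per cell cannot be told apart.

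Adam8 changed the most. It was measured at 0.287, 0.645 and 1.26 CPM in the 3 sham libraries and at 63.1, 125 and 214 CPM in WT mice at 1 d. No injured library came near the sham range, with a log2 fold change of 7.48 (SE 0.62, adjusted p = 1.9e-07). From a trace in sham microglia, Adam8 came to 52.7 ± 15.2% (SD, n = 3) of the summed Adam8, Adam10 and Adam17 level at 1 d, from 0.578 ± 0.293% in sham controls.

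Mmp12, the macrophage elastase, was at 0.351, 2.24 and 2.01 CPM in sham microglia and at 18.6, 41.8 and 95.5 CPM in WT mice at 1 d, with a log2 fold change of 5.08 (SE 0.83, adjusted p = 0.00019). The groups did not overlap, but the 3 injured libraries differed 5.15 times among themselves. Mmp13, a collagenase, was at 0, 0.456 and 0.0251 CPM (0, 12 and 1 counts) in sham controls and at 1.57, 1.92 and 11.3 CPM after injury. The log2 fold change of Mmp13 was 5.00 (SE 1.39, adjusted p = 0.016). The size of that change rests on few sham counts and on 1 injured library: it was 8.12 without sham replicate 2, and the call was lost without sham replicate 1 (adjusted p = 0.064), sham replicate 3 (0.067) or WT replicate 3 (log2 fold change 3.53, adjusted p = 0.11), and adjusted p ran from 0.00066 to 0.11 across alternatives.

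Mmp14, the membrane-anchored MMP that activates the precursor of Mmp2, was already present in sham microglia, at 9.95, 11.2 and 12.6 CPM. It reached 21.9, 32.1 and 39.2 CPM in WT mice at 1 d, a log2 fold change of 1.47 (SE 0.23, adjusted p = 0.00014) with no overlap. Mmp19, a basement membrane protease, was low in both groups, at 0.606, 0.835 and 1.56 CPM in sham controls and 2.83, 1.67 and 3.36 CPM in WT mice, with a log2 fold change of 1.37 (SE 0.39, adjusted p = 0.018). The lowest WT library was just above the highest sham library. That call was lost in a fit of these groups alone (adjusted p = 0.12) and without sham replicate 1 (0.098), sham replicate 2 (0.076) or WT replicate 3 (0.091), in a range of 0.0052 to 0.12. Tmem198b, which shares 789 exon bases with Mmp19 on the other strand, was at 1.49 to 6.76 CPM over the libraries, and reads of such a pair cannot be told apart without strand.

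Both inhibitors were measured on very different levels. Timp1, the inducible TIMP, had 0, 0 and 5 counts in sham microglia and 61, 21 and 66 counts in WT mice at 1 d, which is 2.33, 0.760 and 2.58 CPM. Its log2 fold change was 5.12 (SE 0.85, adjusted p = 3e-04), and 8.86 without sham replicate 3, the library that held the 5 counts. From the summed counts, the ratio was 36.3, with a 95% Clopper-Pearson interval of 15.2 to 114. That interval treats the deposited length-scaled values as read counts. So it only approximates counting error, and it leaves out the spread between libraries. Timp2, the TIMP that also takes part in the activation of Mmp2 by Mmp14, was at 72.6 ± 19.2 CPM (SD, n = 3) in sham controls and at 66.7 ± 4.01 CPM in WT mice, and did not pass (adjusted p = 0.75). So Timp1 made up 2.78 ± 1.48% of the summed Timp1 and Timp2 level in injured WT microglia, and Timp2 the rest.

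The sheddases Adam10 and Adam17 did not pass the test. Adam10 was at 62.7 CPM on average in sham controls and 54.8 CPM in WT mice at 1 d (adjusted p = 0.42), and Adam17 at 55.6 and 51.5 CPM (adjusted p = 0.75). Over all 7 groups the mean of Adam10 lay between 54.0 and 62.7 CPM and that of Adam17 between 38.3 and 58.6 CPM. In none of the 11 pairwise comparisons of the study's groups was either called: the log2 fold changes of Adam10 ran from -0.22 to 0.12 with SEs of 0.15, and those of Adam17 from -0.46 to 0.19 with SEs of 0.17. Each group of either gene overlapped the next one in the order of their means. Groups further apart did not always overlap: Adam10 in WT microglia at 7 d lay below all sham values, and Adam17 lay lower without overlap in Fgg than in WT microglia at 7 d and in Fgg infiltrating myeloid cells than in Fgg microglia (adjusted p = 0.065). Iah1, which shares 311 exon bases with Adam17 on the other strand, was at 3.8 to 20.5 CPM.

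Markers of blood-derived cells were read beside these changes. The monocyte markers summed to between 5.73 and 40.6 CPM in sham microglia and to between 5.72 and 57.5 CPM in WT microglia at 1 d, and the neutrophil markers to between 160 and 810 and between 173 and 839 CPM, so the ranges of these sums overlapped. Single markers of other cells were called higher: 1 of 6 for monocytes (F10, log2 fold change 3.07, adjusted p = 0.0061), 1 of 6 for astrocytes (Gfap, 4.65, adjusted p = 0.00088) and 2 of 6 for oligodendrocytes (Mobp, 2.61, and Mbp, 1.13). Others were called lower: Slc1a3 for astrocytes (-1.91, adjusted p = 5e-05), Csf3r for neutrophils (-1.52, adjusted p = 0.00023) and Zbtb46 for dendritic and lymphoid cells (-1.65, adjusted p = 0.03). The astrocyte markers summed to between 41 and 49.2 CPM in sham controls and between 11.2 and 19.4 CPM in WT mice at 1 d. The share of counts from rRNA was 43.4 to 47.8% in sham and 50.6 to 58.5% in WT libraries at 1 d, without overlap. The dissociation response genes, such as Fos and Jun, summed to between 252 and 1490 CPM in sham controls and between 917 and 1090 CPM in WT mice. The summed microglia markers were between 10000 and 11200 CPM in sham controls and between 2740 and 4230 CPM at 1 d. The part of these shifts in the protease results was not tested.

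At 7 d post-CCI, when WT microglia were compared with the same sham libraries, 2 of the 9 genes were higher and 0 lower, against 2.02% of all genes called. Timp2 was at 169, 154 and 152 CPM in WT mice against 55.4, 69.2 and 93.2 CPM in sham controls, with a log2 fold change of 1.13 (SE 0.19, adjusted p = 0.0023) and no overlap. Adam8 was still at 4.16, 3.90 and 2.44 CPM against 0.287, 0.645 and 1.26 CPM, a log2 fold change of 2.22 (SE 0.54, adjusted p = 0.027). Both calls are close to the thresholds. Without sham replicate 1 the log2 fold change of Timp2 was 0.96 (adjusted p = 0.022), below the bar of 1. Adam8 was lost in a fit of these groups alone (adjusted p = 0.09) and without sham replicate 1 (0.15), sham replicate 2 (0.11), WT replicate 1 (0.091) or WT replicate 2 (0.088), in a range of 0.00033 to 0.15. Mmp12 was at 3.01, 4.96 and 2.98 CPM, above all sham libraries, but did not pass (adjusted p = 0.54). Neither did Mmp13, Mmp14, Mmp19 or Timp1 (adjusted p from 0.63 to 1). The rRNA share was 51.0 to 55.7% in WT libraries at 7 d, above the 43.4 to 47.8% in sham libraries. The summed microglia markers were between 5980 and 6840 CPM, below the 10000 to 11200 CPM in sham controls. The part of these shifts in the 7 d results was not tested.

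The direct comparison of 7 d with 1 d in WT microglia asked which of these levels had changed between the days. Of the 9 genes, 4 were lower and 1 higher at 7 d, against 7.06% of all genes called. Adam8 fell by 5.26 on the log2 scale (SE 0.55, adjusted p = 1.2e-05), Mmp12 by 3.83 (SE 0.78, adjusted p = 0.0027) and Mmp14 by 1.27 (SE 0.23, adjusted p = 0.0011). Timp1 had 2, 2 and 0 counts at 7 d against 61, 21 and 66 at 1 d and was lower too (adjusted p = 0.0013). The ratio of summed counts was 33.3, with an interval of 12.7 to 124 that again treats length-scaled values as read counts. Timp2 was the gene that rose, by 1.25 (SE 0.20, adjusted p = 0.00028). Mmp13, at 0.344 ± 0.139 CPM (SD, n = 3) at 7 d, had a log2 fold change of -3.82 (SE 1.29) and missed the threshold (adjusted p = 0.069), while it passed with DESeq2's Wald test (0.014), in a fit of these groups alone (0.025) and without WT replicate 1 at 1 d (0.048) (0.014 to 0.38 across all alternatives). The highest of these, 0.38 with a log2 fold change of -2.38, came without WT replicate 3 at 1 d. Mmp19 had a log2 fold change of -0.82 (SE 0.38, adjusted p = 0.22). Mean Timp2 levels in the other groups lay between 38.5 and 121 CPM, and the 3 WT libraries at 7 d held the highest values of the series. Each comparison at 7 d shares its libraries with the others, so the values are not independent.

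**Figure D2:**
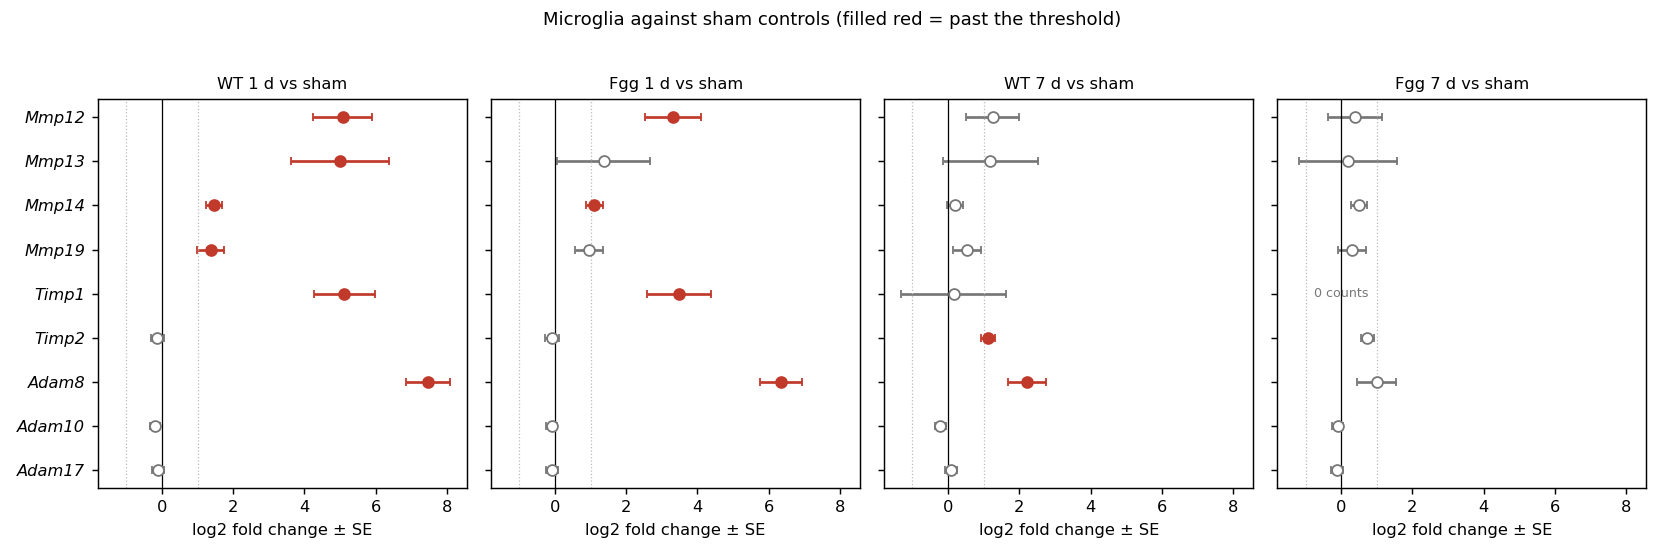
Log2 fold change with its SE for each gene in microglia against the same 3 sham libraries, at 1 d and 7 d for both genotypes. Filled red dots passed the threshold: 6 genes in WT mice at 1 d, 4 in Fgg mice at 1 d, 2 in WT mice at 7 d and 0 in Fgg mice at 7 d, and dotted lines mark a log2 fold change of 1 in either direction. No point is drawn for Timp1 in Fgg mice at 7 d, where all libraries had 0 counts.

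In Fgg microglia at 1 d, 4 of the 9 genes were higher than in sham controls and 0 lower, against 6.64% of all genes called. Adam8 was at 28.2, 95.1 and 60.1 CPM, with a log2 fold change of 6.35 (SE 0.59, adjusted p = 1.3e-06), and again no library overlapped with sham controls. Mmp12 was at 9.50, 11.5 and 24.9 CPM, a log2 fold change of 3.31 (SE 0.78, adjusted p = 0.0078). Mmp14 was at 18.1, 30.0 and 24.6 CPM, a log2 fold change of 1.11 (SE 0.23, adjusted p = 0.0029). This Mmp14 call depended on scaling. DESeq2's size factors shifted the log2 fold changes of all genes by a median of -0.124 in this comparison. They put Mmp14 at 0.97, below the bar. It was 0.92 without Fgg replicate 2. Timp1 had 78, 15 and 2 counts, spread over 1.16, 0.378 and 0.0804 CPM, so that the lowest library lay within the sham range, and its log2 fold change was 3.49 (SE 0.90, adjusted p = 0.018). The Timp1 call was lost in a fit of these groups alone (adjusted p = 0.21), without Fgg replicate 1 (log2 fold change 2.23, adjusted p = 0.17), without sham replicate 1 (0.08) and without sham replicate 2 (0.073), in a range of 0.0017 to 0.21, and its log2 fold change was 7.23 without sham replicate 3.

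Mmp13, which was called in WT mice, stayed at 0.298, 0.378 and 0.522 CPM in Fgg microglia and overlapped with sham controls (adjusted p = 0.61). Mmp19 was at 1.95 ± 0.584 CPM (SD, n = 3) with a log2 fold change of 0.96 (SE 0.38, adjusted p = 0.15), and it passed without sham replicate 3 (1.45, adjusted p = 0.039), in a range of 0.039 to 0.41. Timp2, Adam10 and Adam17 did not pass (adjusted p from 0.84 to 0.91). At 7 d, 0 of the 9 genes passed in Fgg microglia against sham controls with edgeR, where 0.663% of all genes were called, and 2 of the 9 had an unadjusted p under 0.05, as had 1808 of all 23815 genes. These were Timp2, at 138, 106 and 119 CPM (log2 fold change 0.74, SE 0.19, adjusted p = 0.091), and Mmp14, at 15.9 ± 2.65 CPM (SD, n = 3, log2 fold change 0.50, SE 0.23, adjusted p = 0.64). DESeq2's Wald test called 0 of the 9 as well. All 3 Timp2 values lay above all sham values. From 1 d to 7 d, 3 of the 9 genes were lower in Fgg microglia and 0 higher, against 3.54% of all genes called. Adam8 fell by 5.35 (SE 0.56, adjusted p = 3e-05), to 0.819, 1.79 and 1.94 CPM. Mmp12 fell by 2.93 (SE 0.76, adjusted p = 0.026), to 1.31, 0.610 and 4.09 CPM. That call was lost without Fgg replicate 2 (adjusted p = 0.052) or 3 (0.13) at 1 d and without Fgg replicate 1 (0.12) or 2 (0.13) at 7 d, in a range of 0.0017 to 0.13. Timp1 had 0 counts in each Fgg library at 7 d (adjusted p = 0.0059, and 0.067 in a fit of these groups alone, in a range of 4.1e-05 to 0.067). With 3 length-scaled counts over the group taken as the limit, Timp1 was at least 22.8-fold lower than at 1 d. Timp2 had a log2 fold change of 0.82 (SE 0.19, adjusted p = 0.014), below the bar on the fold.

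To test whether the fibrin-CD11b interaction bears on these genes, Fgg mice were compared with WT mice directly, at an adjusted p under 0.1. In microglia at 1 d edgeR called 0 of the 9 genes, and 0.0546% of all genes were called (13 genes, 89 without WT replicate 1 and 6 without WT replicate 3). DESeq2's Wald test called 0 of the 9 too. Of the 9, 4 had an unadjusted p under 0.05, as had 1209 of all 23815 genes. Each of these 4 was lower in the Fgg library than in the WT library of the same number in 3 of 3 pairs. The 4 were picked by these same values and the pairing was read from these data, so that agreement adds no support. The share of all genes with such agreement was not computed. The summed microglia markers (2740 to 4230 CPM in WT and 4810 to 6230 CPM in Fgg mice) and dissociation response genes (917 to 1090 and 289 to 892 CPM) did not overlap between the genotypes either, and their part in these values was not tested. Mmp13 had the largest difference, with 4.93 ± 5.53 CPM (SD, n = 3) for WT and 0.399 ± 0.114 CPM for Fgg microglia, and no library of 1 genotype overlapped with the other (log2 fold change -3.63, SE 1.26, adjusted p = 0.88). Mmp12 was at 51.9 ± 39.5 CPM in WT mice and 15.3 ± 8.37 CPM in Fgg mice, and the groups overlapped when taken as unpaired (log2 fold change -1.77, SE 0.71, adjusted p = 0.89). Timp1 was at 1.89 ± 0.985 and 0.541 ± 0.560 CPM (-1.64, SE 0.58, adjusted p = 0.89), and Adam8 at 134 ± 75.7 and 61.1 ± 33.5 CPM (-1.13, SE 0.46, adjusted p = 0.89). WT replicate 3 was the highest of the 3 WT libraries in Mmp12, Mmp13 and Adam8, and also in Timp1 (2.58 CPM against 2.33 and 0.760). Without it the log2 fold change was -0.99 for Mmp12, -2.14 for Mmp13 and -0.64 for Adam8, with adjusted p = 1 for all 3. For Timp1 the value without WT replicate 3 is not given here. Its log2 fold change was larger in size, -2.89 (adjusted p = 0.33), without Fgg replicate 1. Over the alternatives the adjusted p of these 4 genes lay between 0.19 and 1. Mmp14, Mmp19, Timp2, Adam10 and Adam17 had adjusted p from 0.89 to 1.

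At 7 d edgeR called 0 of the 9 genes between genotypes (0.0378% of all genes, and 0 of the 9 with DESeq2's Wald test), and of the 9 Adam8 alone had an unadjusted p under 0.05, as had 795 of all 23815 genes. It was at 3.50 ± 0.930 CPM in WT microglia and 1.52 ± 0.608 CPM in Fgg microglia, without overlap (log2 fold change -1.22, SE 0.51, adjusted p = 1). Timp2 was at 158 ± 9.60 and 121 ± 16.3 CPM, again without overlap (adjusted p = 1). The share of all genes without overlap between genotypes was not computed for any comparison. A lack of overlap between genotypes is therefore a description and adds nothing to the tests. In infiltrating myeloid cells 0 of the 9 genes were called with either tool, against 0.453% of all genes called by edgeR. Of the 9, Mmp14 alone had an unadjusted p under 0.05, as had 2749 of all 23815 genes. It was at 116, 166 and 121 CPM in WT mice and 113, 77.4 and 85.6 CPM in Fgg mice (log2 fold change -0.55, SE 0.23, adjusted p = 0.37, and -0.31 without WT replicate 2). All 3 Fgg values lay below all WT values. The tests of the difference between genotype effects called 0 of the 9 genes, both between 7 d and 1 d in microglia (0% of all genes called, with 0 of the 9 and 653 of all genes at an unadjusted p under 0.05) and between infiltrating myeloid cells and microglia at 1 d (0.0462% of all genes called). In the latter, 1 of the 9 had an unadjusted p under 0.05, as had 1994 of all 23815 genes. The 1 was Timp1, with a difference of 1.86 on the log2 scale (SE 0.76, adjusted p = 0.54, and 3.11 without Fgg microglia replicate 1). DESeq2's Wald test called 0 of the 9 in both.

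**Figure D3:**
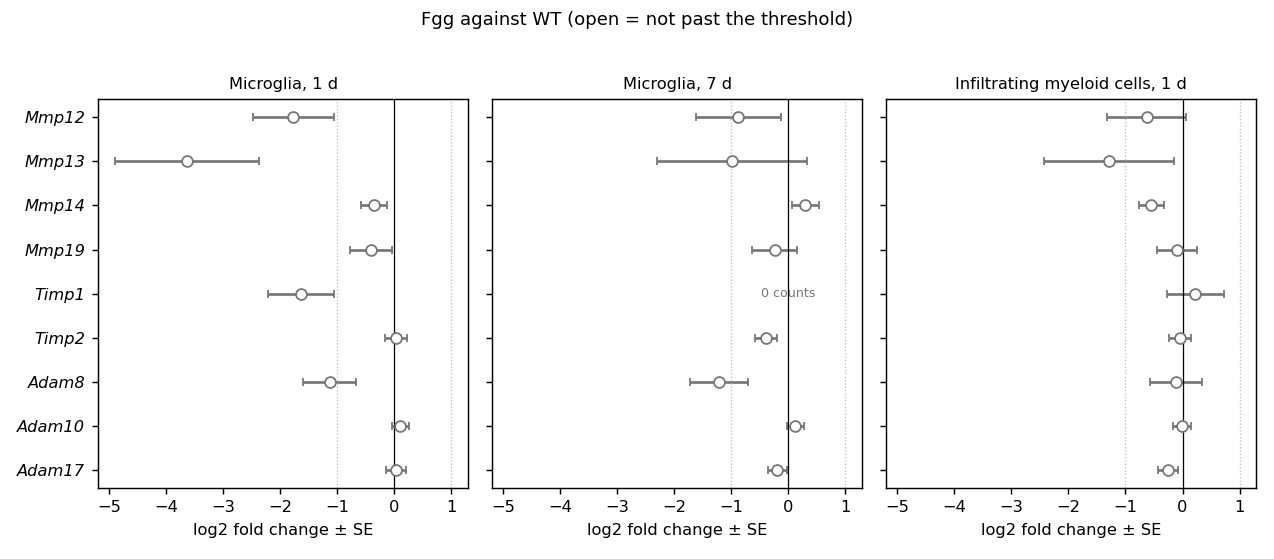
Log2 fold change (Fgg against WT) with its SE for each gene, in microglia at 1 d and 7 d and in infiltrating myeloid cells at 1 d. No dot is filled, as 0 of the 9 genes passed in each panel, the lowest point is Mmp13 in microglia at 1 d (-3.63), and none is drawn for Timp1 at 7 d (0 counts in Fgg mice).

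Infiltrating myeloid cells were then compared with microglia of the same genotype at 1 d. In WT mice, 3 of the 9 genes were higher in infiltrating myeloid cells and 0 lower, against 11.9% of all genes called, and in Fgg mice 4 were higher and 0 lower, against 16.7%. Of 10 dissociation response genes, 5 were higher in the infiltrating cells in WT mice and 7 in Fgg mice, with sums of 2280 to 4460 CPM against 917 to 1090 CPM in WT mice, and their part in these results was not tested. Timp1, Mmp19 and Mmp14 were higher in both genotypes. Timp1 was at 56.6, 63.7 and 70.9 CPM in WT infiltrating myeloid cells, with a log2 fold change of 5.08 over microglia (SE 0.60, adjusted p = 1.3e-05), and at 73.3, 69.7 and 80.2 CPM in Fgg cells (6.94, SE 0.66, adjusted p = 1.1e-06). All 6 libraries lay far above the highest microglia library, at 2.58 CPM. Mmp19 was at 33.4, 26.1 and 47.8 CPM in WT cells (log2 fold change 3.77, SE 0.40, adjusted p = 1.9e-06) and at 23.7, 33.0 and 44.0 CPM in Fgg cells (4.09, SE 0.40, adjusted p = 7.5e-07). Mmp14 was at 134 ± 27.5 CPM (SD, n = 3) in WT cells and 92.0 ± 18.7 CPM in Fgg cells, with log2 fold changes of 2.11 (SE 0.23, adjusted p = 3.4e-06) and 1.93 (SE 0.23, adjusted p = 7.2e-06).

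For Adam8, Mmp12 and Mmp13 the cell classes overlapped in WT mice. Adam8 was at 179, 168 and 240 CPM in WT infiltrating myeloid cells, overlapping with WT microglia (adjusted p = 0.46), and at 138, 238 and 166 CPM in Fgg cells, above all Fgg microglia (log2 fold change 1.56, SE 0.46, adjusted p = 0.02). The latter call was lost without Fgg microglia replicate 1 (adjusted p = 0.097) or 3 (0.058) and without Fgg myeloid replicate 2 (0.075), in a range of 0.0014 to 0.097. Mmp12 was at 14.7, 13.4 and 59.9 CPM in WT infiltrating myeloid cells and 15, 15 and 27.0 CPM in Fgg cells, and its groups overlapped with microglia in both genotypes (adjusted p = 0.46 and 0.82). The highest mean of Mmp12 in the series, 51.9 CPM, was that of WT microglia at 1 d, but its 3 libraries overlapped with those of WT infiltrating myeloid cells. Mmp13 was at 4.57, 5.53 and 11.5 CPM in WT cells (adjusted p = 0.86) and at 2.39, 0.148 and 6.33 CPM in Fgg cells (log2 fold change 2.90, SE 1.23, adjusted p = 0.11). In Fgg cells it passed with DESeq2's Wald test (0.038) and without Fgg myeloid replicate 2 (0.041), and was 1.65 without Fgg myeloid replicate 3 (adjusted p = 0.38, the highest of a range from 0.038).

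Timp2 had the opposite order to Timp1. It was at 39.7 ± 6.31 CPM in WT infiltrating myeloid cells and 38.5 ± 7.81 CPM in Fgg cells, below all microglia libraries of the same genotype and day, with log2 fold changes of -0.75 (SE 0.19, adjusted p = 0.011) and -0.83 (SE 0.19, adjusted p = 0.0041) that did not reach the bar on the fold. Timp1 made up 61.7 ± 3.4% of the summed TIMP level in WT infiltrating myeloid cells and 66.0 ± 5.48% in Fgg cells, against 0.836 ± 0.947% in Fgg microglia. Among the MMPs, Mmp14 held 81.7 ± 8.31% of the summed level of the 4 genes in sham microglia, 38.8 ± 11.5% in WT microglia at 1 d and 65.9 ± 14.3% in WT infiltrating myeloid cells. In WT microglia at 1 d Mmp12 had the higher mean, but in replicate 1 it was at 18.6 CPM, below Mmp14 at 21.9 CPM.

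**Figure D4:**
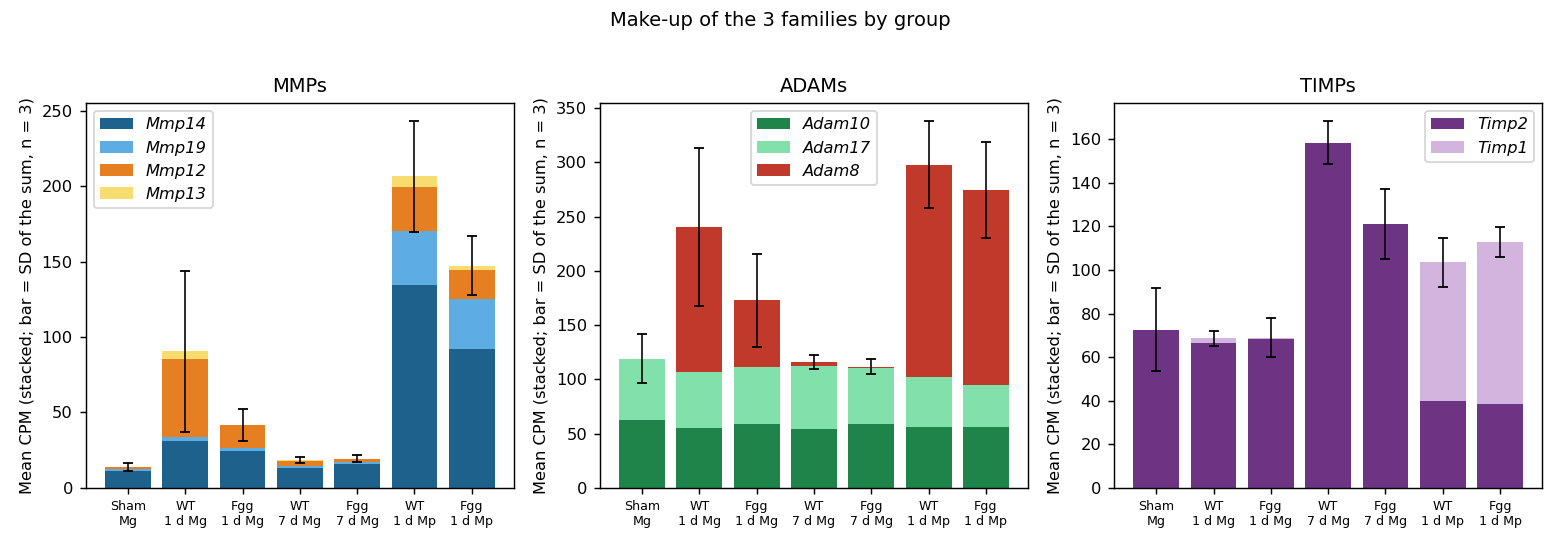
Stacked mean CPM of the MMPs, ADAMs and TIMPs in each group, with the SD of the summed level over 3 libraries as the error bar. Adam8 adds to a near-constant base of Adam10 and Adam17 at 1 d, and Timp1 is a visible part of the TIMP bar in infiltrating myeloid cells alone.

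Since sorted microglia can hold RNA of other cells, the mean of each gene in microglia at 1 d was set as a percent of its mean in infiltrating myeloid cells, beside the same percent for the marker sums. In WT mice the monocyte markers stood at 3.01%, the neutrophil markers at 6.27% and the markers of border macrophages at 9.91%. Timp1 stood at 2.96% and Mmp19 at 7.31%, within or below that span. Mmp14 stood at 23.1%, Adam8 at 68.4%, Mmp13 at 68.5% and Mmp12 at 177%, above it. In Fgg mice these markers stood at 2.51%, 4.9% and 6.6%, Timp1 at 0.727% and Mmp19 at 5.8%, while Mmp13 stood at 13.5%, Mmp14 at 26.3%, Adam8 at 33.9% and Mmp12 at 80.4%. Library by library, Timp1 was read beside the monocyte and the neutrophil markers. In WT microglia at 1 d Timp1 was at 2.33, 0.760 and 2.58 CPM. The monocyte markers were at 57.5, 5.72 and 14.1 CPM there, and the neutrophil markers at 839, 173 and 564 CPM. In Fgg microglia at 1 d Timp1 was at 1.16, 0.378 and 0.0804 CPM. The monocyte markers were at 56.9, 5.69 and 11.9 CPM there, and the neutrophil markers at 433, 131 and 105 CPM. In sham microglia Timp1 had 0, 0 and 5 counts, beside monocyte markers at 6.15, 5.73 and 40.6 CPM and neutrophil markers at 160, 248 and 810 CPM. In Fgg microglia at 7 d Timp1 had 0 counts, with monocyte markers between 19.9 and 32 CPM and neutrophil markers between 383 and 451 CPM. The part of other cells' RNA in the microglia values was not tested for any of these genes, below, within or above the marker span.

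**Figure D5:**
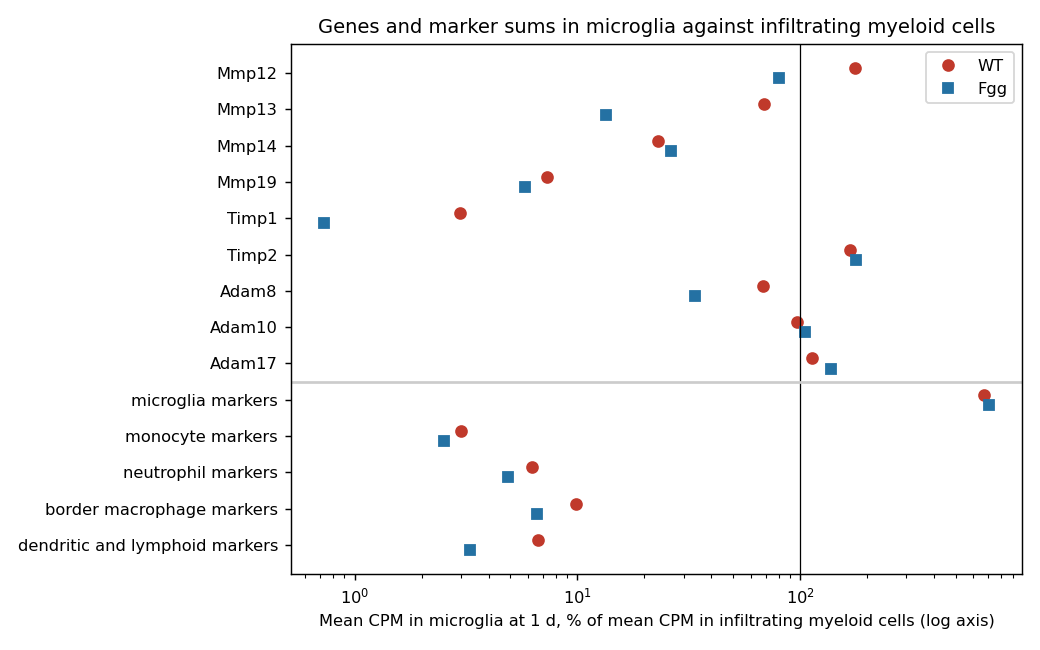
Mean CPM in microglia at 1 d as a percent of mean CPM in infiltrating myeloid cells of the same genotype, on a log axis, for the 9 genes and 5 marker sums. Timp1 (2.96% in WT mice, 0.727% in Fgg mice) lies below the markers of blood-derived and border cells, and Mmp19 (7.31% in WT mice) among them. Mmp12, Mmp13, Mmp14 and Adam8 lie to the right of these markers.

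The counts over the rest of the families in WT microglia at 1 d are read against the 12.3% of all genes called. Of 16 other MMPs tested, 1 was higher and 0 lower in WT microglia at 1 d, Mmp25 (log2 fold change 2.29, adjusted p = 0.031), and their median was -0.11. Of 10 other ADAM genes, 2 were higher, Adam9 (2.02, adjusted p = 3.8e-06) and Adam15 (1.00, adjusted p = 0.023), and Adam9 was also higher in WT mice at 7 d (1.08, adjusted p = 0.0078) and in Fgg mice at 1 d (1.74, adjusted p = 3.8e-05). Of 14 ADAMTS genes, which encode secreted relatives that cut proteoglycans, Adamts1 was higher (3.53, adjusted p = 0.00043) and Adamts16 lower (-2.15, adjusted p = 0.018). Adamts1 was at 29.8 CPM in WT microglia at 1 d and 2.72 CPM in infiltrating myeloid cells, and was lower in the latter (-3.47, adjusted p = 0.00062). Of 7 other inhibitors, 1 was lower, Cst3, which encodes the cathepsin inhibitor cystatin C (-1.27, adjusted p = 0.00021). In WT infiltrating myeloid cells against microglia, Mmp9 (4.48, adjusted p = 0.0011), Mmp8 (5.04, adjusted p = 0.0022) and Mmp25 (2.67, adjusted p = 0.0093) were higher and Mmp2 lower (-2.82, adjusted p = 0.0026). Mmp8 and Mmp9 are stored in neutrophil granules, and Mmp2 is the target of Mmp14. In Fgg cells the 3 were higher as well (Mmp9 at 5.39, Mmp8 at 5.18 and Mmp25 at 4.22), with Mmp2 (-3.44) and Mmp15 lower. Within the chromosome 9 cluster, Mmp3, Mmp7, Mmp10 and Mmp27 had group means of at most 0.381 CPM in every group.

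Of 9 genes for iRhoms, their adaptor Frmd8 and the tetraspanins that carry Adam10, 0 passed with edgeR in WT or Fgg microglia against sham controls at either day. Rhbdf2, which encodes the iRhom needed for Adam17 transport in immune cells, was higher in WT infiltrating myeloid cells than in microglia (1.02, adjusted p = 0.0032), and in Fgg cells Tspan17 was higher and Tspan14 and Rhbdf1 lower. Also against that 12.3%, of 20 known shedding substrates, 5 were higher and 2 lower in WT microglia at 1 d, among them Cd44 (4.76, adjusted p = 5.5e-07), Sdc4 (3.44, adjusted p = 3.8e-06) and Tnf (4.46, adjusted p = 5.8e-06) as higher and Il6ra (-1.65, adjusted p = 3.8e-06) as lower, with a median of -0.20 over the list. Of 17 genes for matrix proteins, Spp1 (7.49, adjusted p = 3.2e-07) and Fn1 (5.52, adjusted p = 5.5e-06), which encode osteopontin and fibronectin, were higher. Of 8 genes for activation and clearance, 1 was higher, Plaur, the receptor that places the plasminogen activator urokinase at the cell surface (2.93, adjusted p = 1.4e-05). It was lower at 7 d than at 1 d in WT mice (-1.24, adjusted p = 0.024) and in Fgg mice (-1.42, adjusted p = 0.018). Of 10 other matrix-degrading proteases, Ctsb (1.6, adjusted p = 0.00024) and Ctsl (1.47, adjusted p = 6.3e-05) were higher at 1 d, and at 7 d against 1 d Ctsd was higher (1.70, adjusted p = 5.5e-05). In the 3 comparisons between genotypes, 0 genes of these 9 lists passed with edgeR. The shares of all genes called there were 0.0546% (microglia, 1 d), 0.0378% (microglia, 7 d) and 0.453% (infiltrating myeloid cells).

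Across the 15 microglia libraries, which share groups and depth, the genes whose log2 CPM followed each member most closely were found among 12197 genes with a mean of at least 1 CPM, as a description. Adam8 ran with Msr1, the scavenger receptor A (Pearson r = 0.996), and Mmp12 with Prdx1 (0.962) and Prelid1 (0.952). Mmp14 ran with Eif2s3x (0.975) and Itga5 (0.966), the latter a fibronectin receptor subunit, Mmp13 with Srxn1 (0.9) and Agtpbp1 (0.893), and Mmp19 with Kifc3 (0.904) and Il18rap (0.875). Timp1 ran with Arg1, the arginase of alternatively activated macrophages (0.939), and Sra1 (0.916). Timp2 ran with Grn (0.965) and Lamp1 (0.964), which encode progranulin and a lysosomal membrane protein. The values for Adam10 (Rpap2, 0.861) and Adam17 (Cpne3, 0.868) were the lowest of the first-ranked genes.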

How the data were processed

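RNA-seq was measured in 21 libraries of sorted cells. The authors quantified reads with salmon 1.4.0 in nf-core/rnaseq 3.0 with GRCm38 and deposited a table of expected counts by gene, scaled within each library so that gene length is divided out and not normalized between libraries; 39.1% of values were not whole, and values were rounded. Whether counting used strand is not given in the sources used here. Groups came from the sample labels, to which the column names were matched.

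Of 45706 identifiers, 45143 were matched to GENCODE M21. Counts were fitted in R 4.3.3 with edgeR 4.0.16 (TMM, glmQLFit and glmQLFTest, Benjamini-Hochberg adjustment over 23815 genes with at least 5 counts) in one fit with 1 mean per group. SE is the log2 fold change over the square root of F. A call needed a log2 fold change beyond 1 in either direction with adjusted p under 0.05, or under 0.1 between genotypes; differences between genotype effects needed adjusted p under 0.1. Total counts of 18896957 to 51875767 per library set the precision. Replicates differed by more than counting noise when the length-scaled values were taken as counts (chi-square per degree of freedom of at least 18.6).

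Deviations of same-numbered libraries from their group means correlated at -0.0658 to 0.372; in 1 of 11 comparisons, Fgg against WT microglia at 1 d, all 3 pairs were above 0.1, so there the numbers were taken to pair the libraries. All 9 genes are named, and of each other list at most 4 called genes with the smallest adjusted p and those needed to account for a count. The members and lists were chosen with earlier results of these data known. P-values measure the spread between pooled libraries. Alternatives were DESeq2 1.42.0 (Wald test and size factors), other filters, the replicate block, compared groups only, other bars on the fold, and leaving out each library. Simulated data with known answers were used to check the fits.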

Additional observations from a re-analysis of the deposited data

How the results depend on the processing

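Of 190 recomputed counts of genes called among the 9, 183 stayed within 1.5 times the reported count. For WT microglia at 7 d against sham controls the count fell from 2 to 1 in a fit of the compared groups alone and to 1 with a bar of 1.5 on the log2 fold change, and lay between 0 and 2 when each library was left out. For 7 d against 1 d in WT microglia it fell from 5 to 3 with the bar of 1.5. With the replicate block the counts were 6, 2, 4 and 0 against sham controls and 0 between genotypes at 1 d, so the pairing changed no call there, and it changed no other call of the 9 genes. Of 546 recomputed fold changes given in the text, 512 kept their direction and their side of the threshold, 28 lost the call, 6 gained it and 0 changed sign. Among 965 recomputed values of the other fold changes of the 9 genes, 91 changed sign. Those other fold changes were not all near 0 in the main fit. In Fgg microglia against sham controls, the log2 fold change of Timp1 at 7 d was -3.76 (SE 2.27). That of Mmp13 at 1 d was 1.37 (SE 1.30). The number of all genes called moved by over 1.5 times in several comparisons. With DESeq2's Wald test it was 820 in place of 481 (WT, 7 d against sham), 347 in place of 158 (Fgg, 7 d against sham), 104 in place of 13, 80 in place of 9 and 841 in place of 108 (genotypes, in microglia at 1 d, at 7 d and in infiltrating myeloid cells), and 33 in place of 0 and 259 in place of 11 (differences of genotype effects). In fits of the compared groups alone it was 85, 8, 19 and 7 in the Fgg 7 d and the 3 genotype comparisons, 2211 in place of 3967 between Fgg cell classes and 0 in place of 11. For infiltrating myeloid cells between genotypes it was 176 with filterByExpr, 66 with the replicate block, and between 65 and 641 when each library was left out; in microglia at 1 d it was then between 6 and 89. With the bar of 1.5 it was 1749 in place of 2923, 282, 834 in place of 1582, 820 in place of 1682 and 346 in place of 844 in WT at 1 d and 7 d and Fgg at 1 d against sham, and 7 d against 1 d in WT and Fgg; with no bar the last was 1343. Except where fewer libraries or another bar enter by construction, the cause was not tested. With 3 libraries per group, Timp1 and Mmp13 at a few counts per library are the least certain values.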
